A study of Homo sapiens with 40 samples.

Results

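TMEM45A and its paralog TMEM45B, 2 of the 60708 genes in the count files, were followed across all 24 RNA-seq libraries of 3 breast cell models. The pair was taken by gene symbol, but it was chosen on measured values, with the levels and differences of these same libraries known. Its values are therefore given below as a description, with no p-value, and tests are reported for other genes alone. Each of the 8 groups held 3 libraries that the labels call biological replicates. MI-spheres were MCF-10A cells, an immortalized breast epithelial line, and MII-spheres were HRAS-transformed MCF-10AneoT cells. Both were grown in 3D in ultra-low attachment plates and were left untreated (Ctrl) or received TGFβ1 at 2.5 ng/ml for 16 h (TGFβ). The other 4 groups were monolayers of MDA-MB-231, a triple-negative breast cancer line: untreated wild-type cells (WT), cells labelled SLUG knockout (SLUG KO), and wild-type cells given control scramble siRNA (Csi) or siRNAs against SMAD2, SMAD3 and SMAD4 (siSMAD2/3/4). The knockout came from Cas9 ribonucleoprotein and single-cell colonies, so its 3 libraries describe clonal cells.

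TMEM45A and TMEM45B encode closely related multipass membrane proteins. TMEM45A is known as a hypoxia-responsive gene of epidermal keratinocytes and of carcinoma cells, where it has been tied to resistance to chemotherapy, while TMEM45B is the less studied of the pair. TGFβ acts through receptors that phosphorylate SMAD2 and SMAD3, which enter the nucleus with SMAD4. SLUG, encoded by SNAI2, is a zinc finger repressor that binds E-box motifs and silences epithelial genes.

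TMEM45A (ENSG00000181458.10) lies on the forward strand of chromosome 3 at 100492619 to 100577444 in GRCh38, and TMEM45B (ENSG00000151715.8) on the forward strand of chromosome 11 at 129815848 to 129860003. No annotated gene overlaps either of them. The canonical coding sequences, of 828 bases each, were identical at 62.2% of 792 aligned bases, and their translations, of 275 residues each, at 44.4% of 268 aligned residues. The most alike ungapped stretch of 60 coding bases is shown because it bears on whether reads of the 2 genes can be confused, with the bases that differ in capitals.
TMEM45A: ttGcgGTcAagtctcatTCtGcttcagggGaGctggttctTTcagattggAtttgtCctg
TMEM45B: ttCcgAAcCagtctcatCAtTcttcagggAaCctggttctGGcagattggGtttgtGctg
Even there, 13 of 60 bases differed, and the longest exact stretch that the 2 canonical transcripts shared was 11 bases.

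The RefSeq promoter window of TMEM45A (GRCh38.p14, chr3:100492369-100492668, forward strand), which runs from 250 bases before to 50 bases after the start, is shown with its CG dinucleotides in capitals.
TMEM45A promoter: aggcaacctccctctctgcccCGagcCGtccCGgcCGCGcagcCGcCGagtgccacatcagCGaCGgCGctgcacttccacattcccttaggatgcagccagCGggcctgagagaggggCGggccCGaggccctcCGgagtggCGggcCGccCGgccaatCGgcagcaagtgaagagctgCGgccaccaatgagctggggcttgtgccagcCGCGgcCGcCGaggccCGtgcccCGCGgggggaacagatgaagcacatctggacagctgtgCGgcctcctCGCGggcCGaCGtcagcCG
The window held 32 CG dinucleotides and 72.3% G or C, against medians of 14 and 58.7% over 35116 promoter windows, of which 17.2% held more CG dinucleotides. On both strands, it held none of the 5 short motifs searched. These were CAGAC (a form of the SMAD site), CAGGTG (an E-box of SNAI2), ACGTG (hypoxia response), TGACTCA (AP-1) and AACAAT (SOX), which 45.3%, 20.6%, 21.4%, 4.95% and 10.1% of all windows held. Their absence says only that these letters are not in this window. The study describes SMAD binding to the shorter CAGA or to GC-rich sequences, and the window does hold CAGA. It also holds the E-box forms CAGCTG and CATCTG. Whether any factor binds there was not tested.

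The libraries held 14124688 to 38406952 counts assigned to genes. Correlations of log2 CPM between libraries of a group were at least 0.984, except that the library WT 2 reached only 0.957 and 0.952 with the other WT libraries. Mitochondrially encoded genes took 2.40% of the counts of WT 2, against 0.812% and 0.656% in WT 1 and WT 3. In the 6 siRNA libraries this share was higher still, at 3.81% to 6.02%. Protein-coding genes took 97.8% to 98.2% of the counts in the siRNA libraries and 86.8% to 91.8% in the spheres. HRAS was 2.45 ± 0.04 log2 units (SE) higher in MII Ctrl than in MI Ctrl (adjusted p = 1.23e-45 by edgeR's quasi-likelihood test), and SMAD2, SMAD3 and SMAD4 fell by 1.92, 0.69 and 1.72 log2 units in siSMAD2/3/4 against Csi (edgeR adjusted p = 2.65e-22, 9.7e-15 and 1.5e-19). SNAI2 RNA was not lower in the libraries labelled SLUG KO. The name SLUG KO is used here for the libraries so labelled. It was at 63.4, 57.3 and 64.6 CPM there, above the 30.1, 20.02 and 33.1 CPM of WT (log2 fold change 1.10 ± 0.21, edgeR adjusted p = 0.0399, 2.54e-06 to 0.221 over 11 alternatives, of which 7 lost the call). The guide was aimed at the start of exon 1, and counts over a whole gene do not show whether its reading frame is broken. The study's methods state that the clones were checked by droplet digital PCR and immunoblotting. Sums of 8 basal mammary markers lay between 2752 and 2832 CPM in MI Ctrl, between 1647 and 1746 CPM in MII Ctrl and between 302 and 734 CPM in WT, and they were higher with TGFβ, at 4478 to 4778 CPM in MI TGFβ and 3315 to 3469 CPM in MII TGFβ. The upper end in WT came from WT 2, where ITGB4 alone was at 634 CPM, against 198 and 191 CPM in WT 1 and WT 3. Sums of 8 mesenchymal carcinoma markers lay at 459 to 477 CPM in MI Ctrl, 836 to 889 CPM in MI TGFβ and 3754 to 4864 CPM in WT. Over all libraries the sums of 6 immune, 5 endothelial and 6 fibroblast markers ran from 2.63 to 233.7, from 8.40 to 118.6 and from 0.827 to 64.3 CPM. Of the immune markers, the leukocyte gene PTPRC and the T cell gene CD3E had group means of at most 0.405 and 0.0396 CPM, whereas the myeloid genes CD14 and LYZ averaged 193 and 35.8 CPM in MII Ctrl against 101.5 and 0.260 CPM in MI Ctrl. The part of these markers in the values below was not tested.

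TMEM45A was most abundant in the TGFβ-stimulated spheres. In CPM, each count taken relative to its library's total after TMM scaling over all 24 libraries, it was at 192, 204 and 187 CPM in MII TGFβ and at 138, 121.4 and 154 CPM in MI TGFβ. It was at 62.1, 57.1 and 53.6 CPM in MII Ctrl. These 3 groups overlapped neither each other nor any of the rest. The other 5 groups lay more than 4-fold lower than MII Ctrl.

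**Figure D1:**
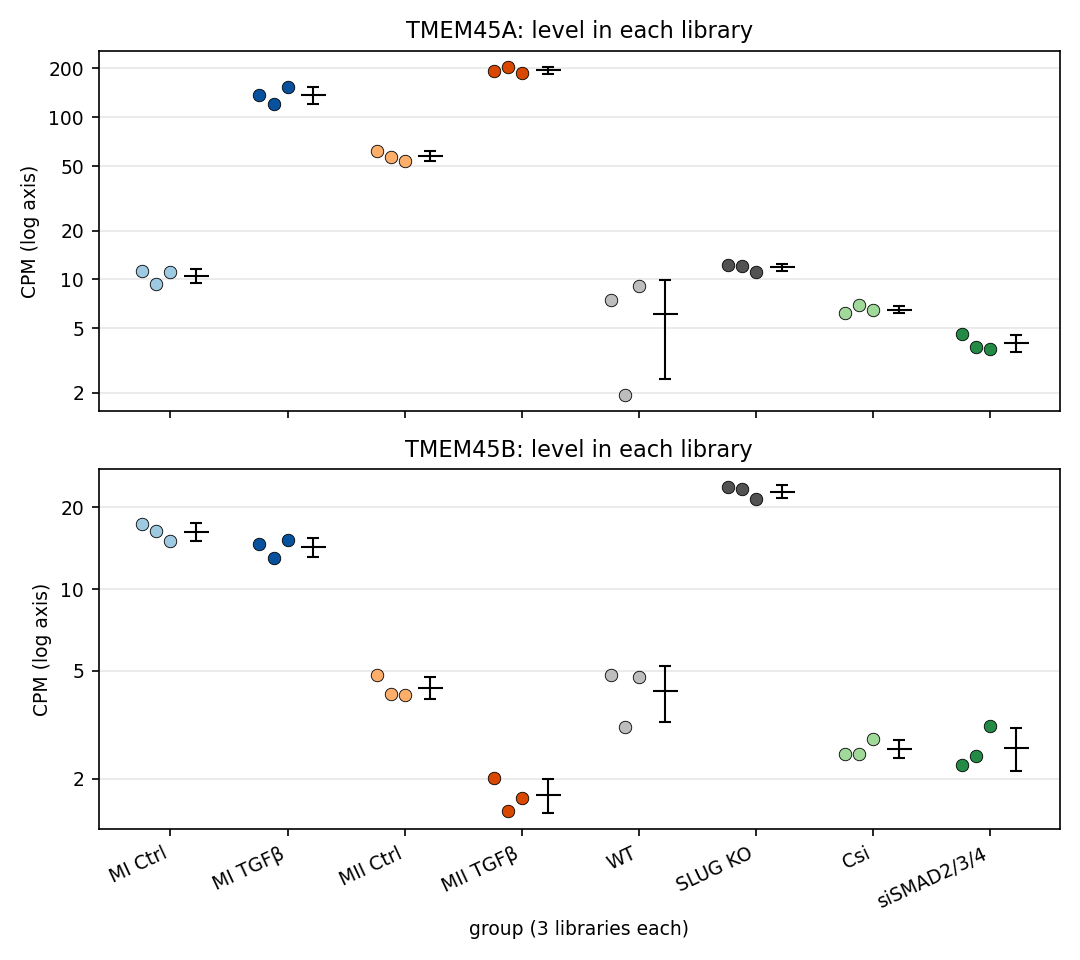
Level of TMEM45A (top) and TMEM45B (bottom) in each of the 24 libraries, in CPM on a log axis, by group. Points are libraries, and the dash with bars is the mean ± SD of 3. TMEM45A reached 194 CPM on average in MII TGFβ, and TMEM45B was highest in SLUG KO with 22.8 CPM and lowest in MII TGFβ with 1.75 CPM.

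Among these 5 groups the means of TMEM45A ran from 11.9 ± 0.632 CPM in SLUG KO and 10.5 ± 1.02 CPM in MI Ctrl, which overlapped, through 6.52 ± 0.357 CPM in Csi and 6.13 ± 3.72 CPM in WT to 4.05 ± 0.486 CPM in siSMAD2/3/4 (SD, n = 3). WT overlapped both Csi and siSMAD2/3/4, because its library WT 2 held 49 counts of TMEM45A, or 1.95 CPM, against 7.41 and 9.04 CPM in WT 1 and WT 3. The 6 siRNA libraries carry another batch label than the other 18, so that the siRNA treatments and the batch cannot be told apart when their levels are set beside those of WT. In these bulk libraries a smaller share of cells with the transcript and less of it per cell cannot be told apart either.

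TMEM45B followed another order. It was highest in the libraries labelled SLUG KO, at 23.8, 23.3 and 21.4 CPM, which stood above every other library. MI Ctrl (17.4, 16.4 and 14.99 CPM) and MI TGFβ (14.7, 13.0 and 15.2 CPM) came next and overlapped. MII Ctrl (4.34 ± 0.416 CPM) and WT (4.22 ± 0.975 CPM) overlapped, as did WT with siSMAD2/3/4 (2.60 ± 0.467 CPM) and siSMAD2/3/4 with Csi (2.58 ± 0.196 CPM). MII TGFβ was lowest, with 2.02, 1.52 and 1.71 CPM from 30, 23 and 25 counts. The group in which TMEM45A was highest was thus the one in which TMEM45B was lowest, but the 8 group means of the 2 genes on the log2 scale had a Pearson r of -0.0016 and a Spearman rho of 0.0714. Pearson's r was -0.38 over the 6 groups without the siRNA libraries and -0.60 over the 4 sphere groups, all as a description over groups that share cell lines and batches.

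Set beside each other per kilobase of exon (RPKM, with merged exon lengths of 6005 and 2998 bases), TMEM45A exceeded TMEM45B in both MII groups and in MI TGFβ. The ratio of TMEM45A to TMEM45B was 55.7 (geometric mean, range 47.4 to 66.7) in MII TGFβ, 6.63 (6.44 to 6.90) in MII Ctrl and 4.79 (4.65 to 5.07) in MI TGFβ. It was 1.26 in Csi and 0.782 in siSMAD2/3/4. It was 0.612 in WT, 0.323 in MI Ctrl and 0.259 in SLUG KO. The merged exons of TMEM45A, at 6005 bases, are longer than its canonical transcript. With the canonical transcripts of 1567 and 2205 bases every ratio was 2.82 times larger, which put siSMAD2/3/4 (2.20, range 1.68 to 2.88) above 1, WT at 1.72 (0.884 to 2.69), MI Ctrl at 0.911 (0.805 to 1.04) and SLUG KO at 0.731.

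TGFβ stimulation of MI-spheres addressed which genes respond in the non-transformed cells. TMEM45A had 291, 195 and 213 counts in MI Ctrl and 2567, 2839 and 3765 in MI TGFβ, and the lowest stimulated library was above the highest control. Its log2 fold change was 3.67 ± 0.08 (SE), a 12.7-fold difference and the 19th highest of 16863 genes tested. TMEM45B had 452, 341 and 289 counts in MI Ctrl and 274, 305 and 371 in MI TGFβ. The groups overlapped for this gene, and its log2 fold change was -0.22 ± 0.09. In this comparison 28.7% of the genes tested rose and 27.4% fell at an edgeR adjusted p under 0.05, and the median log2 fold change over all genes was -0.02.

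In MII-spheres the same stimulation went with opposite differences of the paralogs. TMEM45A had 941, 1673 and 973 counts in MII Ctrl and 2849, 3073 and 2742 in MII TGFβ, with no overlap as counts or as CPM. Its log2 fold change of 1.73 ± 0.05, or 3.32-fold, was the 189th highest of 16396. TMEM45B was at 4.82, 4.13 and 4.08 CPM in MII Ctrl and, as given above, at 2.02, 1.52 and 1.71 CPM in MII TGFβ, and every stimulated library was below every control. Its log2 fold change of -1.32 ± 0.21, or 2.50-fold lower, was the 598th from the bottom. In this comparison 29.9% of the genes tested rose and 27.6% fell, with a median of -0.02.

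The unstimulated spheres compared HRAS-transformed with non-transformed cells, so HRAS and any other difference between the lines cannot be told apart. TMEM45A was 2.45 ± 0.07 log2 units, or 5.45-fold, higher in MII Ctrl than in MI Ctrl, the 626th highest of 17862. TMEM45B was 1.92 ± 0.11 log2 units, or 3.79-fold, lower in MII Ctrl, the 574th from the bottom. Neither gene's 2 groups overlapped. Over all genes tested, 31.7% were higher and 32.5% lower in MII Ctrl, so a difference between these lines was common.

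The difference between the 2 TGFβ responses, fitted as an interaction over the 12 sphere libraries, was -1.93 ± 0.10 log2 units for TMEM45A, the 265th from the bottom of 18591, and -1.09 ± 0.21 for TMEM45B. The smaller fold of TMEM45A in MII-spheres started from a higher control level and ended at the higher stimulated level. In CPM, the mean of TMEM45A was 127 CPM higher with TGFβ in MI-spheres and 136 CPM higher in MII-spheres. The response was more positive in MII-spheres for 12.6% of genes and more positive in MI-spheres for 9.75%. These comparisons share control libraries, so they are not independent of each other.

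**Figure D2:**
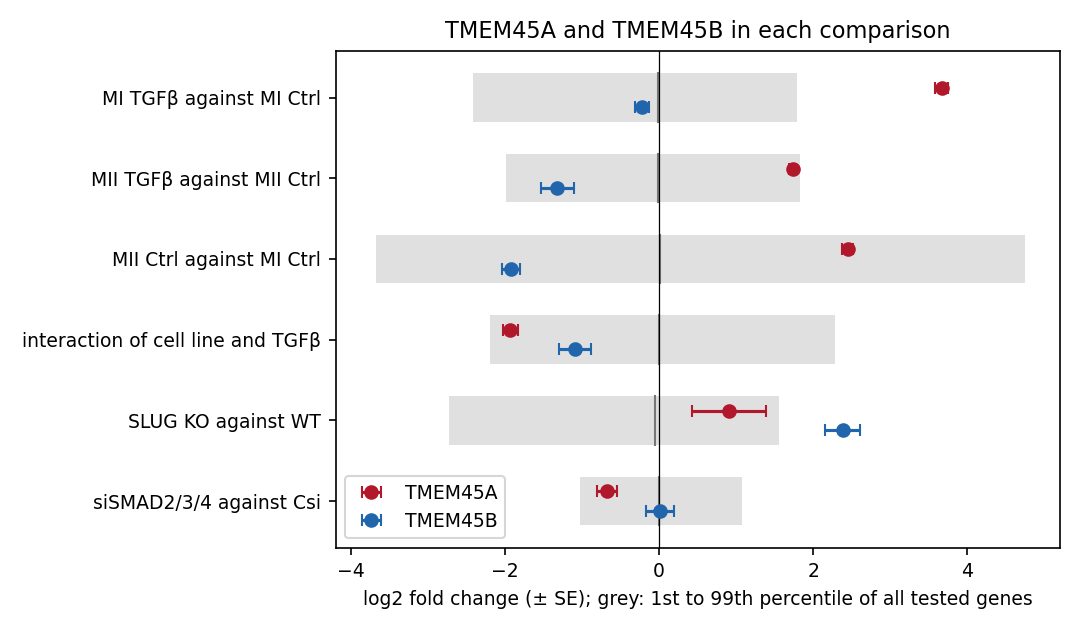
Log2 fold change ± SE of TMEM45A (red) and TMEM45B (blue) in the 6 comparisons, with the interaction as the MII response minus the MI response. Grey bars span the 1st to the 99th percentile of all genes tested and the grey line marks their median. TMEM45A in MI TGFβ (3.67) lies beyond the 99th percentile of 1.79, and TMEM45B in SLUG KO (2.38) beyond that of 1.55.

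In MDA-MB-231 cells, TMEM45B was at 23.8, 23.3 and 21.4 CPM in the libraries labelled SLUG KO and at 4.83, 3.10 and 4.74 CPM in WT. The groups did not overlap. The log2 fold change was 2.38 ± 0.23, or 5.22-fold, the 51st highest of 17428 genes, and 2.23 ± 0.13 without the library WT 2. TMEM45A had 311, 267 and 245 counts in SLUG KO and 198, 49 and 229 in WT, with no overlap. Its log2 fold change was 0.91 ± 0.48, and 0.50 ± 0.14 without WT 2, so that this 1 library moved the value by over 1.5 times. In this comparison 1.45% of the genes tested rose and 1.89% fell, or 581 genes in all, against 5592 genes without WT 2. As SLUG KO cells were grown from single cells, clone and genotype cannot be told apart.

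After siRNA against the 3 SMADs, TMEM45A had 164, 127 and 117 counts against 181, 252 and 230 in Csi, and the groups did not overlap. The log2 fold change was -0.68 ± 0.13, or 1.60-fold lower, the 756th from the bottom of 17696. TMEM45B had 80, 81 and 98 counts against 72, 90 and 100, with overlapping groups and a log2 fold change of 0.01 ± 0.18. Over all genes 16.3% rose and 19.7% fell. No TGFβ was added here. The file names of 2 siSMAD2/3/4 libraries carry another flow cell than the remaining 4, and with the flow cell as a term the values were -0.80 ± 0.19 for TMEM45A and 0.28 ± 0.25 for TMEM45B.

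Genes near the pair were examined to see whether the differences extended over the surrounding chromosome. Of the 7 protein-coding genes whose start lay within 500 kb of the start of TMEM45A, 6 were tested in MI-spheres. The log2 fold changes of these 6 ran from -0.48 to 0.34, and 3 rose (NIT2, TOMM70 and TFG), against 3.67 for TMEM45A. In MII-spheres all 7 were tested. ADGRG7, an adhesion G protein-coupled receptor gene 117 kb downstream of the start of TMEM45A, rose by 2.28 ± 0.46 log2 units (edgeR adjusted p = 3.6e-05, up to 0.00358 over 11 alternatives) and FILIP1L fell by 1.05 (edgeR adjusted p = 0.000519). ADGRG7 was read at few counts. It had 11, 4 and 3 in MII Ctrl and 31, 11 and 24 in MII TGFβ, with the closest libraries at 0.726 and 0.729 CPM, and 0, 0 and 1 in MI Ctrl and 12, 18 and 6 in MI TGFβ, where it did not pass the filter on low counts. The next gene, TFG, 217 kb downstream, rose by 0.29 log2 units in MII-spheres (edgeR adjusted p = 2.52e-07). Between the unstimulated lines, LNP1, whose start lay at -91.1 kb, was higher by 1.45 ± 0.29 log2 units in MII Ctrl (edgeR adjusted p = 1.54e-05). It had 20, 21 and 18 counts in MI Ctrl and 55, 58 and 36 in MII Ctrl. FILIP1L was higher by 0.95 there (edgeR adjusted p = 0.000432). Of the 6 neighbours tested, 4 were lower in MII Ctrl, by at most 0.27 log2 units.

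Of the 6 neighbours of TMEM45B, BARX2, an upstream homeobox gene whose start lay at -440 kb, rose by 2.86 ± 0.53 log2 units with TGFβ in MI-spheres (edgeR adjusted p = 0.000107) and was higher by 4.57 ± 0.37 in MII Ctrl than in MI Ctrl (edgeR adjusted p = 5.3e-16), where TMEM45B was lower. BARX2 had 6, 2 and 1 counts in MI Ctrl. In SLUG KO, ST14, which encodes the epithelial membrane protease matriptase and lies 344 kb downstream of the start of TMEM45B, rose by 2.79 ± 0.37 log2 units (edgeR adjusted p = 0.0102, 2.59e-12 to 0.0564 over 11 alternatives, and not past the threshold without SLUG KO 1 or without SLUG KO 3). ST14 was at 22.01, 19.7 and 21.2 CPM in SLUG KO and 1.91, 4.61 and 2.17 CPM in WT. The other 4 neighbours tested there, which include NFRKB and APLP2 between TMEM45B and ST14, had log2 fold changes from -0.06 to 0.34 and none passed the test. Without WT 2, APLP2 (0.37, edgeR adjusted p = 0.00803) and NFRKB (0.29, edgeR adjusted p = 0.0405) passed it.

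**Figure D3:**
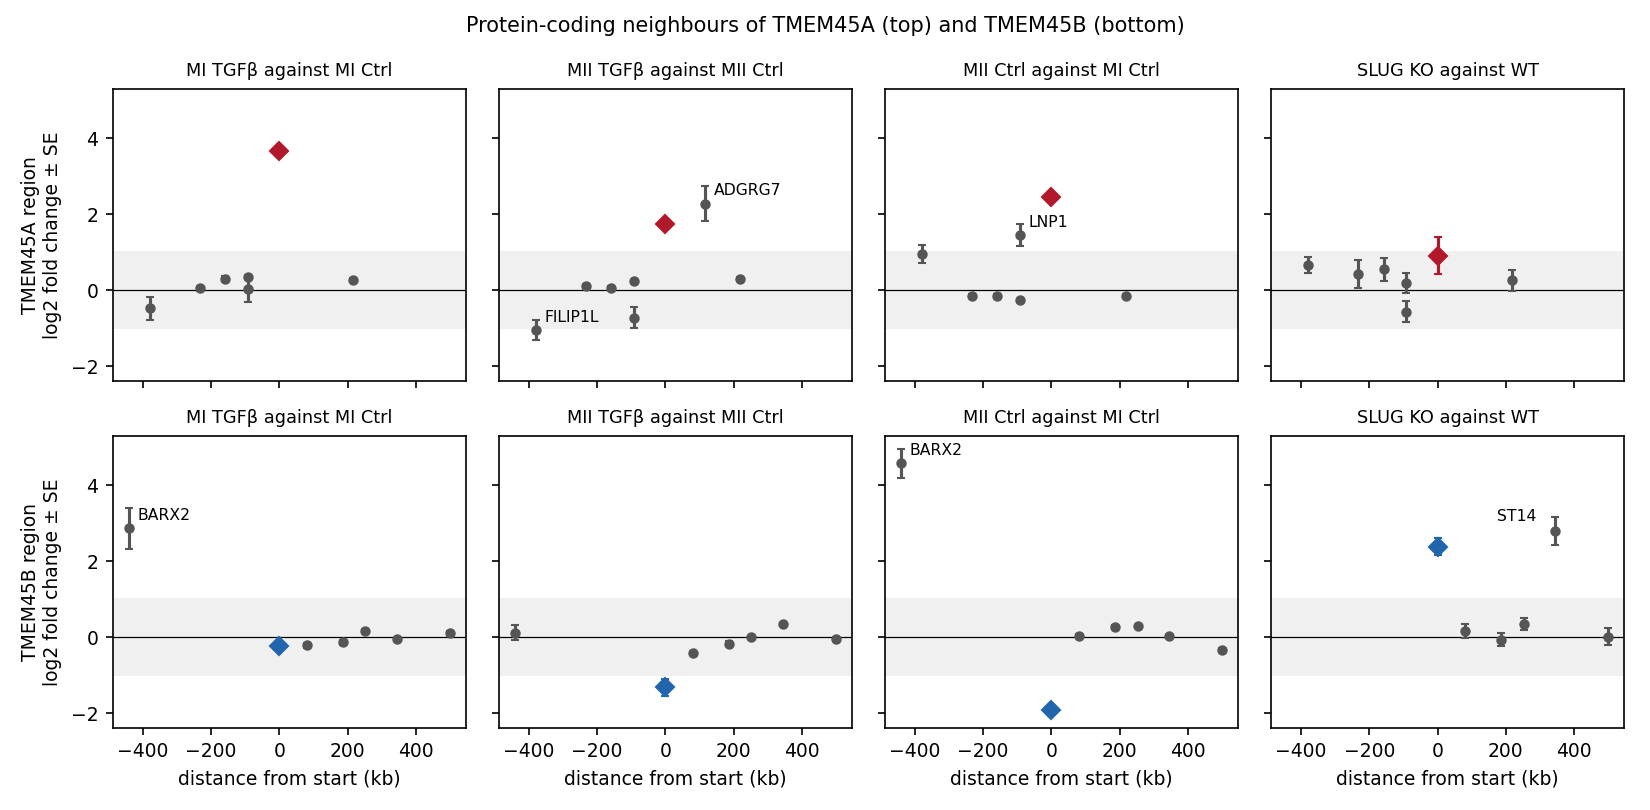
Log2 fold change ± SE of the protein-coding neighbours (grey) by distance of their start from the start of TMEM45A (top, red diamond) or TMEM45B (bottom, blue diamond) in kb, in 4 comparisons. Named genes passed an adjusted p of 0.05 and a log2 fold change beyond 1, outside the shaded band. No tested neighbour of TMEM45A lay above 0.34 in MI TGFβ, where TMEM45A was at 3.67.

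Lists of genes of the pathways around TMEM45A were described beside it. Whether any of these pathways acts on TMEM45A or TMEM45B was not tested. Every gene named from them passed an edgeR adjusted p of 0.05 in the comparison for which it was named. Over all genes tested, 28.7% rose and 27.4% fell in MI-spheres, and 29.9% and 27.6% in MII-spheres. In MII Ctrl 31.7% were higher and 32.5% lower than in MI Ctrl. The interaction was more positive in MII-spheres for 12.6% and more negative for 9.75%. In SLUG KO 1.45% rose and 1.89% fell, and after the SMAD siRNAs 16.3% and 19.7%. Of 40 targets of hypoxia-inducible factor, 32 of 39 tested rose and 4 fell with TGFβ in MI-spheres, with a median log2 fold change of 1.08 against -0.02 over all genes. The number that fell was 2 without MI TGFβ 2 or without MI Ctrl 1. In MII-spheres 24 rose and 8 fell, with a median of 0.37. CA9, a carbonic anhydrase gene, rose by 4.54 ± 0.09 log2 units (edgeR adjusted p = 2.51e-19) in MI-spheres. LDHA, of lactate dehydrogenase, rose by 1.46 ± 0.03 in MII-spheres (edgeR adjusted p = 3.79e-38). ANKRD37 and ADM, also hypoxia targets, fell in both lines, by 1.41 and 0.54 log2 units in MI-spheres and by 1.72 and 1.09 in MII-spheres. The response of the list was smaller in MII-spheres, where 26 of 39 genes had a more negative and 1 a more positive interaction, with a median of -0.40.

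Between the unstimulated lines 24 of the 39 hypoxia targets were lower and 10 higher in MII Ctrl. Their median was -0.35 against 0.02 over all genes, and TMEM45A was higher by 2.45. NDRG1 was lower by 2.59 ± 0.05 and HK2, of hexokinase, higher by 1.34 ± 0.04. In SLUG KO 2 of 40 rose and 3 fell, and without WT 2 these were 5 and 16. After the SMAD siRNAs 6 of 40 rose and 23 fell, with a median of -0.20. A link between hypoxia and the level of TMEM45A was not tested.

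Of 40 TGFβ and SMAD targets, 21 of 38 rose and 8 fell in MI-spheres (median 0.34), and 17 rose and 12 fell in MII-spheres (median 0.12). The 31.6% that fell in MII-spheres was near the 27.6% of all genes tested. FN1, of fibronectin, rose by 2.16 ± 0.06 in MI-spheres. In MII-spheres it was at 0.09 (edgeR adjusted p = 0.061), with an interaction of -2.06 ± 0.08 (edgeR adjusted p = 2.31e-22). SNAI1 fell in both lines, by 2.22 and 2.53 log2 units. By RT-qPCR the study reports the other direction, with SNAI1 among the TGFβ-responsive genes upregulated in MI- and MII-spheres. In MII Ctrl against MI Ctrl 16 were higher and 16 lower. After the SMAD siRNAs 16 of 37 rose and 13 fell (median 0.07), and the integrin gene ITGA2 fell by 0.79 ± 0.04. In SLUG KO 1 of 35 rose and 7 fell (median -0.63), and without WT 2 these were 10 and 12. The 1 that rose with all libraries was SNAI2, the gene the knockout was aimed at, whose call is described above. FN1 fell by 3.17 ± 0.23 in SLUG KO. The interaction was more negative in MII-spheres for 17 of 39 and more positive for 7.

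Of 45 genes of keratinocyte differentiation, 15 of 33 tested rose and 10 fell in MI-spheres (median 0.18), and 18 of 29 rose and 7 fell in MII-spheres (median 0.35). The shares that fell, 30.3% and 24.1%, were near the 27.4% and 27.6% of all genes tested. The basal keratin gene KRT5 rose by 2.39 ± 0.05 and 3.38 ± 0.05 log2 units in MI- and MII-spheres, while KLF4, of a factor that drives barrier formation, fell by 2.00 and 0.70. In MII Ctrl 22 of 32 were lower and 9 higher than in MI Ctrl (median -1.55), and the interaction was more positive in MII-spheres for 15 of 32 and more negative for 3. In MDA-MB-231 cells 14 and 17 of the 45 were tested. There 1 rose and 0 fell in SLUG KO by edgeR, and without WT 2 these were 5 and 1. After the SMAD siRNAs 5 rose and 2 fell, and at most 1 fell without siSMAD2/3/4 1, siSMAD2/3/4 3 or any 1 of the Csi libraries.

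Of 40 epithelial genes, 5 of 39 rose and 25 fell with TGFβ in MI-spheres (median -0.32), and 14 rose and 11 fell in MII-spheres (median 0.00). The shares in MII-spheres, 35.9% and 28.2%, were near the 29.9% and 27.6% of all genes tested. ELF3, an epithelial transcription factor gene, fell by 1.05 ± 0.05 and 0.43 ± 0.03 log2 units, and EPCAM rose by 1.07 ± 0.06 and 0.63 ± 0.04. TMEM45B differed the other way between the lines, with -0.22 in MI-spheres and -1.32 in MII-spheres, while the list's interaction was more positive in MII-spheres for 26 of 39 genes and more negative for 3. In MII Ctrl 19 of 39 were higher and 16 lower. In SLUG KO 3 of 29 rose and 0 fell by edgeR, with a median of 0.29 against -0.05 over all genes, and without WT 2 these were 11 and 1. ST14, the neighbour described above, is one of these genes. After the SMAD siRNAs 12 of 31 rose and 3 fell, and LLGL2, of a cell polarity protein, rose by 0.77 ± 0.05.

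The genes whose pattern was most like that of each paralog were found by Pearson's r of log2 CPM over the 8 group means, among 5058 protein-coding genes with an SD of at least 1. The closest to TMEM45A were KRT6C (r = 0.974), PTHLH (0.969), GLOD5 (0.966), EPHA3 (0.965) and ADGRG7 (0.960), the last being the neighbour described above. PTHLH, of parathyroid hormone-related protein, was at 28.4 ± 4.01 CPM in MI TGFβ and 30.8 ± 2.55 CPM in MII TGFβ, against 3.48 ± 0.344 and 6.84 ± 0.531 CPM in the controls and at most 1.36 CPM in any MDA-MB-231 library. The remaining 4 were rare transcripts, at no more than 31 counts in any library, and most of their MDA-MB-231 libraries were at or near 0. Over the 24 libraries PTHLH had the 3rd highest r (0.947) and KRT6C the highest (0.952).

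TMEM45B had less close matches, with WNT10A (r = 0.842), ALDH1A2 (0.819), COL3A1 (0.807), VNN1 (0.799) and OLR1 (0.774). WNT10A, of a WNT ligand, was at 3.65 ± 0.310 CPM in MI Ctrl and 3.44 ± 0.709 CPM in SLUG KO, against 0.338 ± 0.060 CPM in MII Ctrl and 0.494 ± 0.074 CPM in WT. COL3A1 departed from the pattern in MI TGFβ, where its mean log2 CPM was 3.69 against 0.63 in MI Ctrl. All these r values are over points that share cell lines, culture form and batch.

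**Figure D4:**
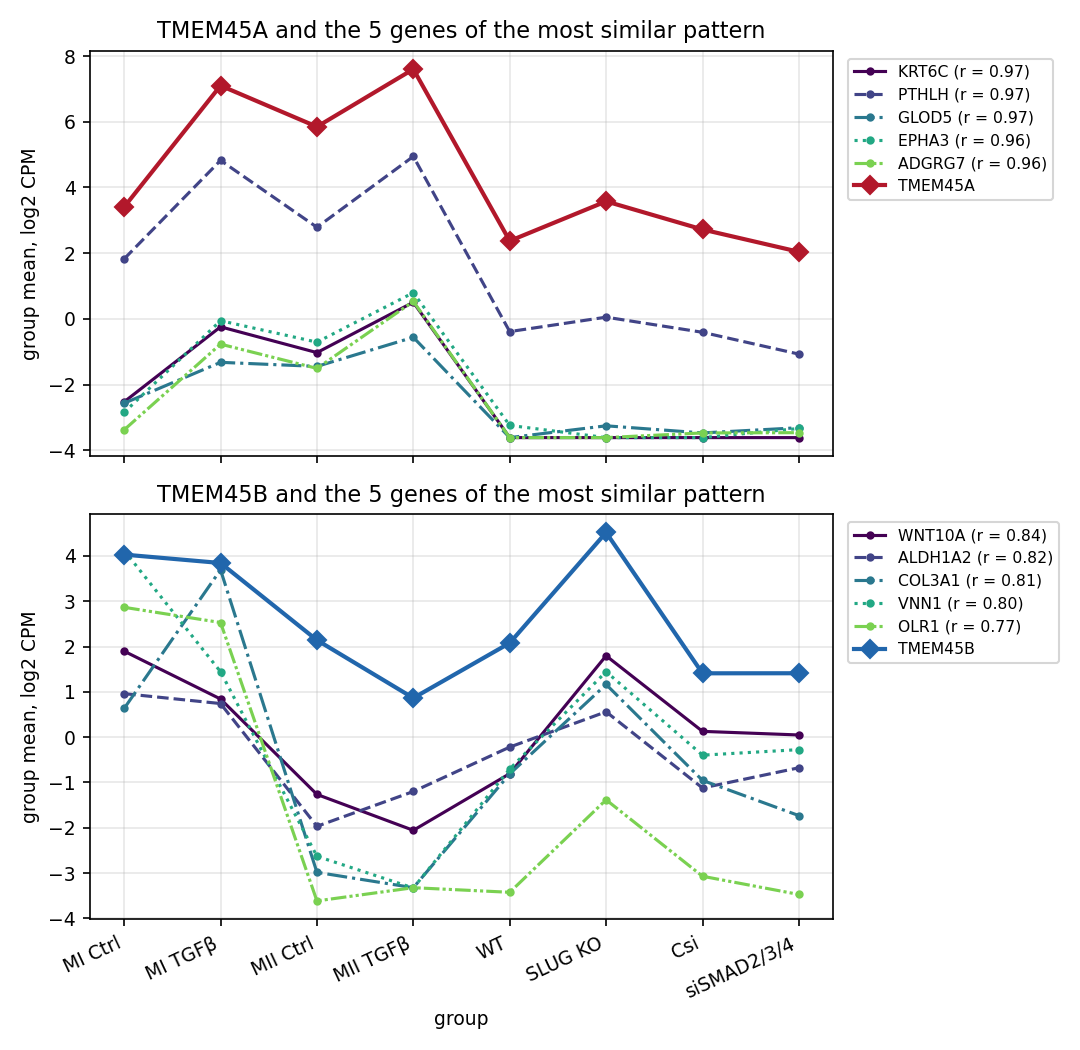
Group mean of log2 CPM for TMEM45A (top) and TMEM45B (bottom), drawn with diamonds, and for the 5 genes with the highest Pearson r to each over the 8 groups. All 5 genes in the top panel are highest in MII TGFβ, and KRT6C is at the floor of the scale in the 4 MDA-MB-231 groups. In the bottom panel OLR1 is at 7.22 CPM in MI Ctrl but 0.302 CPM in SLUG KO, where TMEM45B is highest.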

How the data were processed

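RNA was measured in 24 libraries, and the 16 ATAC-seq samples of the series were not used here. The authors deposited raw read counts per gene: per the file headers and processing notes of the submitters, reads were trimmed with Trimmomatic, aligned with STAR to GRCh38.p13 and counted with featureCounts (Subread 2.0.0) over GENCODE annotation, as read pairs and without strand, although the kit was stranded. Of the 60708 gene identifiers, 99.6% matched a symbol. From the counts, edgeR 4.0.16 (TMM scaling, filterByExpr, glmQLFit and glmQLFTest, in R 4.3.3) was fitted over all genes for each comparison on its own 6 libraries, and for the interaction on 12, and p-values were adjusted by Benjamini and Hochberg's method across every tested gene. The SE is the absolute log2 fold change over the root of F. DESeq2 1.42.0 was an alternative. On simulated counts with known changes the test was checked before use. The precision depends on the depth and on the spread between libraries. The p-values weigh each difference against that spread, which edgeR estimates partly from all genes together. The labels call the libraries biological replicates but do not assign them to cultures.

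The 2 genes, the gene lists and the motifs were chosen with earlier results of these data known. Named are the pair, SNAI2, SMAD2, SMAD3, SMAD4 and HRAS, neighbours within 500 kb (beyond a log2 fold change of 1 and an adjusted p of 0.05; NIT2, TOMM70, TFG, NFRKB and APLP2 were named after their values were seen), up to 2 genes per list, direction and comparison with the smallest adjusted p (some are not reported here), and the 5 genes most like each paralog (log2 CPM with a prior count of 2). The canonical-transcript lengths were added after seeing the data. Same-numbered libraries were not paired: correlations of their deviations ran from -0.185 to 0.0506. Sequences came from RefSeq (GRCh38.p14, 1 of 2 promoters matched) and GENCODE transcripts, compared with Biopython.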

Additional observations from a re-analysis of the deposited data

Results flagged for a closer look

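4 neighbours had a TGFβ response that differed between MII- and MI-spheres by the interaction term (edgeR's quasi-likelihood test, adjusted p). BARX2, upstream of TMEM45B, responded less in MII-spheres, with a difference of -2.71 ± 0.53 log2 units (adjusted p = 0.000132, at most 0.00101 over 16 alternatives). It had 24, 29 and 15 counts in MI TGFβ against 6, 2 and 1 in MI Ctrl, and its mean was 3.36 CPM in MII Ctrl and 3.70 CPM in MII TGFβ. ST14 responded more in MII-spheres, by 0.41 ± 0.06 (adjusted p = 2.08e-06, at most 0.000274 over 17 alternatives). NIT2 (-0.24 ± 0.08, adjusted p = 0.0263) and NFRKB (-0.20 ± 0.07, adjusted p = 0.0491) differed by small amounts, and their adjusted p reached 0.137 and 0.223 over 17 alternatives.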

How the results depend on the processing

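The log2 fold changes of TMEM45A and TMEM45B moved by less than the spread between replicates in 150 of 152 alternatives. The exceptions were TMEM45B after the SMAD siRNAs (0.28 with the flow cell as a term) and TMEM45B in the interaction, which ran from -1.23 to -1.02 over the fits that leave out 1 library. The sign turned for TMEM45B after the SMAD siRNAs alone, which ran from -0.13 to 0.11 without 1 library and was below 0 without siSMAD2/3/4 3, Csi 1 or Csi 2. TMEM45A ran from 0.50 to 1.29 in SLUG KO, lowest without WT 2. The spread it was held against was the mean of the groups' SDs of log2 CPM. These were 0.0774 in SLUG KO and 1.18 in WT, the latter widened by WT 2 itself. Moves of this size therefore counted as within the spread there, and the count does not show that this value was stable.

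The count of genes passing in SLUG KO was 581, and it was 1204 with DESeq2, 973 without the low-count filter, 260 with at least 10 counts in every library, 255 with the replicate block, and 133 to 5592 without 1 library, highest without WT 2. In the other 5 comparisons this count stayed within 1.5 times. Counts over the lists moved further in SLUG KO, where without 1 library the hypoxia targets had 0 to 5 higher and 1 to 16 lower, the TGFβ targets 0 to 10 and 1 to 12, the keratinocyte genes 0 to 5 and 0 to 1, and the epithelial genes 1 to 11 and 0 to 1. Elsewhere 3 list counts did so. Hypoxia targets that fell in MI TGFβ went from 4 to 2 with DESeq2 or without 1 library, keratinocyte genes that fell after the SMAD siRNAs from 2 to 1 with DESeq2 and to 0 with the flow cell term, and TGFβ targets that rose there from 16 to 10 with the flow cell term. The replicate block, though the libraries are not paired, gave log2 fold changes of 3.67, 1.73 and 1.12 for TMEM45A in MI TGFβ, MII TGFβ and SLUG KO and of -0.22, -1.34 and 2.40 for TMEM45B. Mean levels moved by over 1 SD only for TMEM45A in Csi (6.15 CPM with DESeq2 size factors) and TMEM45B in MI TGFβ (12.7 CPM by library totals). The ratio per length turned from below to above 1 with canonical transcripts in siSMAD2/3/4 (2.20) and, on average but not in every library, in WT (1.72, range 0.884 to 2.69). Of the 5 genes most like TMEM45A, 2 were among the 5 nearest over 24 libraries, and of those most like TMEM45B, 2 were over 6 groups without the siRNA libraries. Depth limits TMEM45B most, at 23 to 30 counts in MII TGFβ.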
